A study of Mus musculus with 64 samples.

Results

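The Wnt ligands, their receptors and their secreted modulators were followed as a set of genes in PyMT mouse mammary tumors with different Abi1 gene doses. The set was defined by name and type: protein-coding genes called Wnt, Fzd, Sfrp, Dkk or Rspo with a number, together with Lrp5, Lrp6, Lgr4, Lgr5, Lgr6, Wif1, Znrf3, Rnf43, Axin2, Porcn and Notum. It held 52 of the 21721 protein-coding genes, or of 55381 genes in all.

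Total RNA of 8 primary mammary tumors from 4 mice had been sequenced, with 2 tumors per mouse, to compare tumors with and without Abi1. All mice carried PyVT, the polyoma middle T antigen that drives mammary tumors, and a floxed Abi1 gene, and Cre, where present, was expressed from the MMTV promoter, which is active mainly in mammary epithelium. In heterozygotes, tumors 3 and 6 of the KO mouse G164 (Abi1 fl/wt with Cre) were set against tumors 6 and 8 of the control G144 (fl/wt without Cre). In homozygotes, tumors 1 and 6 of the KO mouse G174 (fl/fl with Cre) were set against tumors 6 and 9 of the control G184 (fl/fl without Cre). By the pathology records of the study, G164 and G184 were older than G144 and G174, so the older mouse was the KO in heterozygotes and the control in homozygotes. Each genotype was a single mouse, so genotype, mouse and age cannot be told apart, and the p-values measure only the spread between tumors of a mouse.

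Wnt proteins are secreted lipid-modified ligands. Porcn attaches the lipid and Wls carries the ligand to the cell surface, where it binds a Frizzled receptor with the coreceptor Lrp5 or Lrp6. In the canonical branch this stabilises beta-catenin, which activates TCF/LEF target genes such as Axin2. R-spondins, through the Lgr receptors, hold back the ubiquitin ligases Rnf43 and Znrf3 that remove Frizzled from the membrane, while Sfrp and Wif1 proteins bind Wnt ligands, Dkk1 and its close relatives block Lrp5 and Lrp6, and Notum removes the lipid. In the mammary gland, Wnt signals are known for their part in branching and in the upkeep of basal progenitors, and Wnt1 was identified as a mammary oncogene in mice.

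Between 50346075 and 69264893 counts lay on genes in a tumor, and 79052 to 130408 of them on the 52 genes. Abi1 itself was at 63.1 and 66.7 CPM (gene counts scaled to a common library size by TMM) in G164, against 111 and 130.1 CPM in G144. It was at 8.93 and 6.47 CPM in G174, against 114 and 122 CPM in G184, so its level followed the labels. Summed luminal markers, which included Krt8 and Epcam, were at 4429 to 5319 CPM in the 8 tumors, as fits mammary epithelium.

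Receptors were abundant and most ligands scarce. Per length, in TPM (counts divided by exon length and scaled to a common sum) averaged over the 8 tumors, Lrp6 (74.2), Lgr4 (65.5), Wnt5b (54.8), Sfrp1 (53.6), Fzd7 (49.7) and Lrp5 (48.7) were at the highest levels of the set. Below them came Lgr6 (46.4), Fzd6 (42.2), Rnf43 (39.5), Wif1 (34.4), Fzd5 (28.5), Fzd1 (27.0) and Sfrp2 (18.7 TPM). Of the 19 ligands, only Wnt5b, Wnt5a (14.3 TPM) and Wnt7b (9.19 TPM) averaged above 5 TPM. Wnt9a (3.93 TPM), Wnt4 (3.34 TPM) and Wnt11 (1.82 TPM) came next, and the other 13 were below 1 TPM. The filter on low counts kept 43 of the 52 genes for testing. Wnt1, Wnt3, Wnt3a, Wnt7a, Wnt8b, Dkk1, Dkk4, Rspo2 and Rspo4 did not pass it, and of these Wnt1 (4 counts), Wnt3a (8), Wnt8b (9), Rspo2 (4), Rspo4 (5), Dkk1 (6) and Dkk4 (7) were near 0, with under 10 counts over all 8 tumors together. At this depth their transcripts were not measurable as different between mice. For Wnt2b, Wnt3, Wnt8b, Wnt16, Sfrp5, Dkk4 and Rspo4 the opposite strand held more reads than the counted one.

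**Figure D1:**
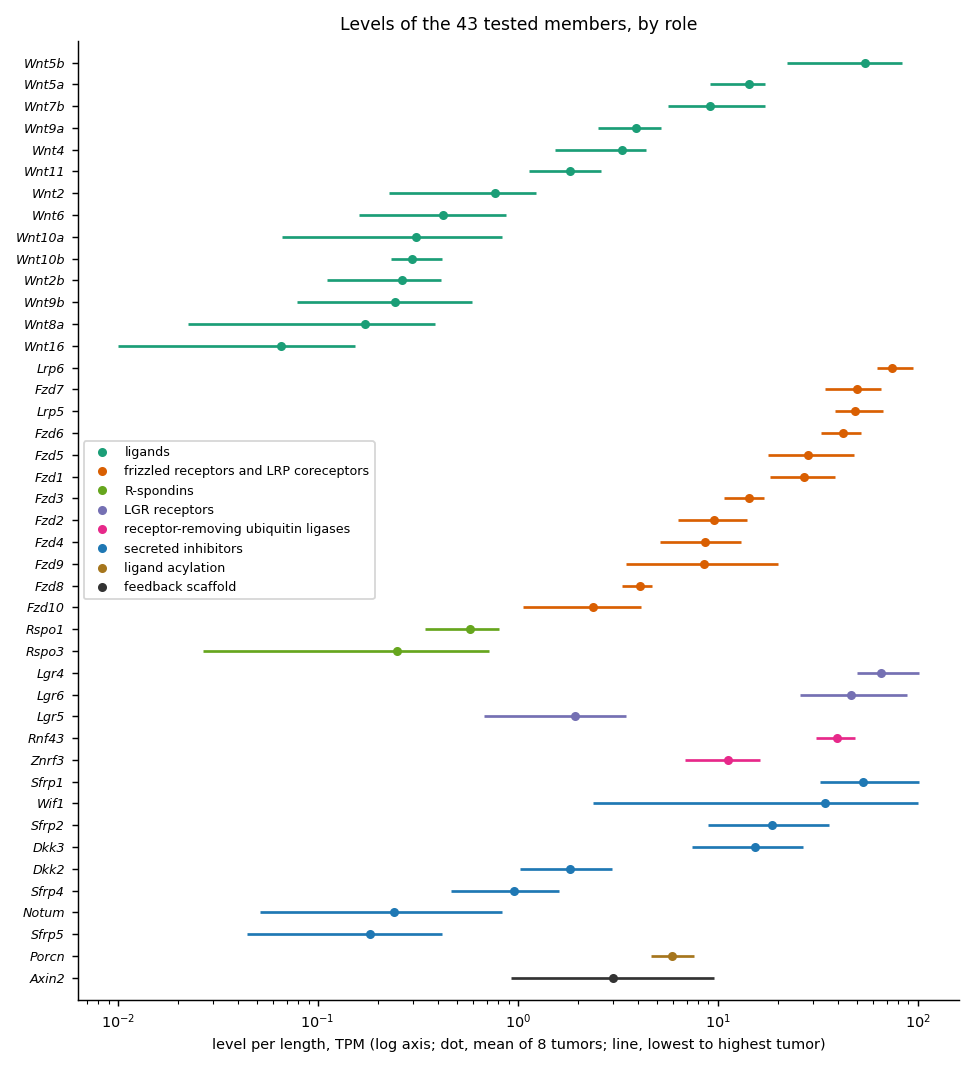
Level per length (TPM, log axis) of the 43 tested genes, ordered by role; dots are the mean of 8 tumors and lines run from the lowest to the highest tumor, with a tumor at 0 for Wnt16 drawn at 0.01. Lrp6, Lgr4 and Wnt5b had the highest means, and the line of Wif1 was among the longest, from 2.39 to 101 TPM.

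In heterozygotes, Sfrp2 was the only gene of the set past the threshold of an adjusted p of 0.05 in the edgeR fit of all 8 tumors, which is meant throughout where a gene is said to pass and no other tool or setting is named. That is 1 of 43 tested genes, and it was higher in the KO. Over all 22187 genes tested, 4.01% were past the threshold, with 2.72% higher and 1.29% lower in the KO. DESeq2 called 5 genes of the set here, adding Fzd1 and Wnt5b (higher) and Fzd5 and Fzd9 (lower), and 2817 over all genes. In homozygotes 7 of 43 passed. Fzd2, Fzd9, Lgr4 and Wif1 rose and Sfrp2, Dkk3 and Fzd4 fell, where 13.1% of all genes passed, 5.44% higher and 7.70% lower in the KO. DESeq2 called these and, in addition, Wnt9b (higher) and Wnt4 (lower), and 4577 over all genes. The change in homozygotes differed from that in heterozygotes for 8 of 43 genes (Fzd2, Fzd5, Fzd9, Lgr4 and Wif1 upwards, Sfrp2, Dkk3 and Wnt6 downwards), against 25.1% of all genes, 12.0% upwards and 13.1% downwards. The shares within the set were thus near or below those over all genes, except for 7 of 43 in homozygotes, slightly above. The median log2 change over the 43 genes was 0.26 in heterozygotes and -0.14 in homozygotes, and over all genes 0.015 and -0.001.

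**Figure D2:**
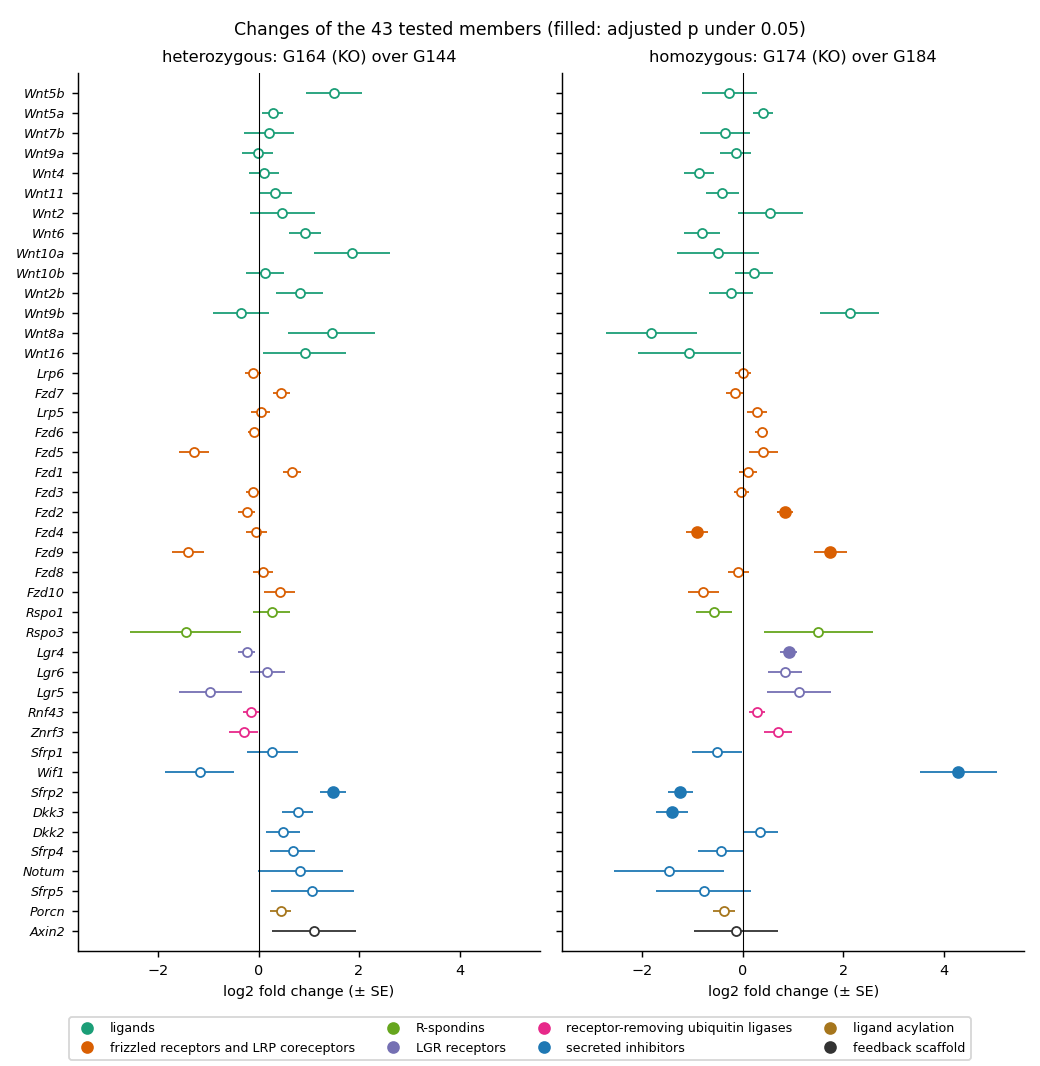
Log2 fold change with its SE of the 43 tested genes, in heterozygotes (G164 over G144, left) and homozygotes (G174 over G184, right), colored by role; filled points are past an adjusted p of 0.05. Sfrp2 is the only filled point on the left, at 1.49, and Wif1 is the farthest on the right, at 4.29.

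The control mice, which both have an intact Abi1, also differed. Between G184 and G144 12.6% of all genes passed the threshold, 6.17% higher and 6.40% lower in G184. In the set, 2 of 43 genes passed: Sfrp2 was higher in G184 by 1.04 ± 0.26 (SE) on the log2 scale (adjusted p = 0.0433), and Wif1 was lower in G184, with a log2 difference of -3.56 ± 0.75 (SE, adjusted p = 0.0279). The controls are the same samples as in the KO comparisons, so these values are not independent of them. Of 16 alternatives run, 10 lost the Sfrp2 call between the controls and 4 lost that of Wif1, with no change of direction. Each KO was also set against the mean of both controls, a comparison added after the data were seen. There edgeR called 0 of the 43 genes in either KO. Over all genes it called 132 in the heterozygous KO and 395 in the homozygous KO. Within the set, 6 genes had an unadjusted p under 0.05 in the heterozygous KO and 13 in the homozygous KO.

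Over mice, with the tumors of a mouse summed, 0 of 43 genes differed between the 2 Cre-positive and the 2 Cre-negative mice in edgeR, against 0% of all 23281 genes tested. None of the 43 had an unadjusted p under 0.05, where 0.820% of all genes did. DESeq2 also called 0 of the 43, and 22 over all genes.

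Among the secreted inhibitors, Sfrp2, Dkk3 and Wif1 passed the threshold. Sfrp2, a frizzled-related protein that binds Wnt, was at 27.5 and 22.9 CPM in G164 tumors 3 and 6, against 8.36 and 9.59 CPM in G144 tumors 6 and 8. It was at 8.18 and 7.41 CPM in G174 tumors 1 and 6, against 13.6 and 23.3 CPM in G184 tumors 6 and 9. The tumors of KO and control did not overlap in either genotype, and G164 and G184 were the high mice. Sfrp2 rose in the heterozygous KO by 1.49 ± 0.26 (SE, log2; adjusted p = 0.0347), a 2.81-fold change. In the homozygous KO it fell by 1.24 ± 0.26 (SE, log2; adjusted p = 0.0265). The changes differed by -2.73 ± 0.36 (SE, log2; adjusted p = 0.0042), and this difference was past the threshold in all 15 alternatives run.

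Dkk3, a Dickkopf-family glycoprotein whose part in Wnt inhibition is less settled than that of Dkk1, had 27.0 and 24.1 CPM in G164, against 12.2 and 17.7 CPM in G144. It had 9.25 and 11.1 CPM in G174, against 18.8 and 35.3 CPM in G184. Its highest and its lowest mouse were a control and a KO of the same floxed genotype. Dkk3 fell in the homozygous KO by 1.41 ± 0.32 (SE, log2; adjusted p = 0.0323), while its log2 change in heterozygotes was 0.78 ± 0.31 (adjusted p = 0.179). The difference between the changes was -2.19 ± 0.44 (adjusted p = 0.0155).

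Wif1, a secreted protein that binds Wnt ligands, had the widest range. It was at 28.4 and 7.39 CPM in G164, against 47.9 and 32.7 CPM in G144. In homozygotes it was at 38.8 and 94.4 CPM in G174, against 4.53 and 2.28 CPM in G184. The KO and control tumors did not overlap in either genotype, and G184 was below every other tumor. Wif1 rose 19.5-fold in the homozygous KO (log2 change 4.29 ± 0.77 SE, adjusted p = 0.0181). The log2 change was 3.53 without tumor 6 of G174 and 4.89 without tumor 6 of G184, and without tumor 9 of G184 it was 3.88 and no longer passed (adjusted p = 0.113). The log2 change in heterozygotes was -1.18 ± 0.68 (adjusted p = 0.325), and the difference between the changes was 5.46 ± 1.02 (adjusted p = 0.0121), with values from 4.72 without tumor 6 of G174 to 6.76 without tumor 3 of G164. Against the mean of both controls the log2 change in the homozygous KO was 2.51 (adjusted p = 0.0741).

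Of the other inhibitors, Sfrp1, the most abundant, was at 66.8 and 100.6 CPM in G164, against 78.3 and 60.0 CPM in G144. It was at 56.4 and 111 CPM in G174, against 64.7 and 175.5 CPM in G184. The tumors of a mouse spread widely and the groups overlapped. Dkk2, Sfrp4, Notum and Sfrp5 were at 1.82, 0.954, 0.242 and 0.184 TPM on average and passed the threshold in none of the comparisons. Over the 8 inhibitors tested, the median log2 change was 0.73 in heterozygotes (7 positive) and -0.65 in homozygotes (2 positive), beside the medians over all genes given above.

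**Figure D3:**
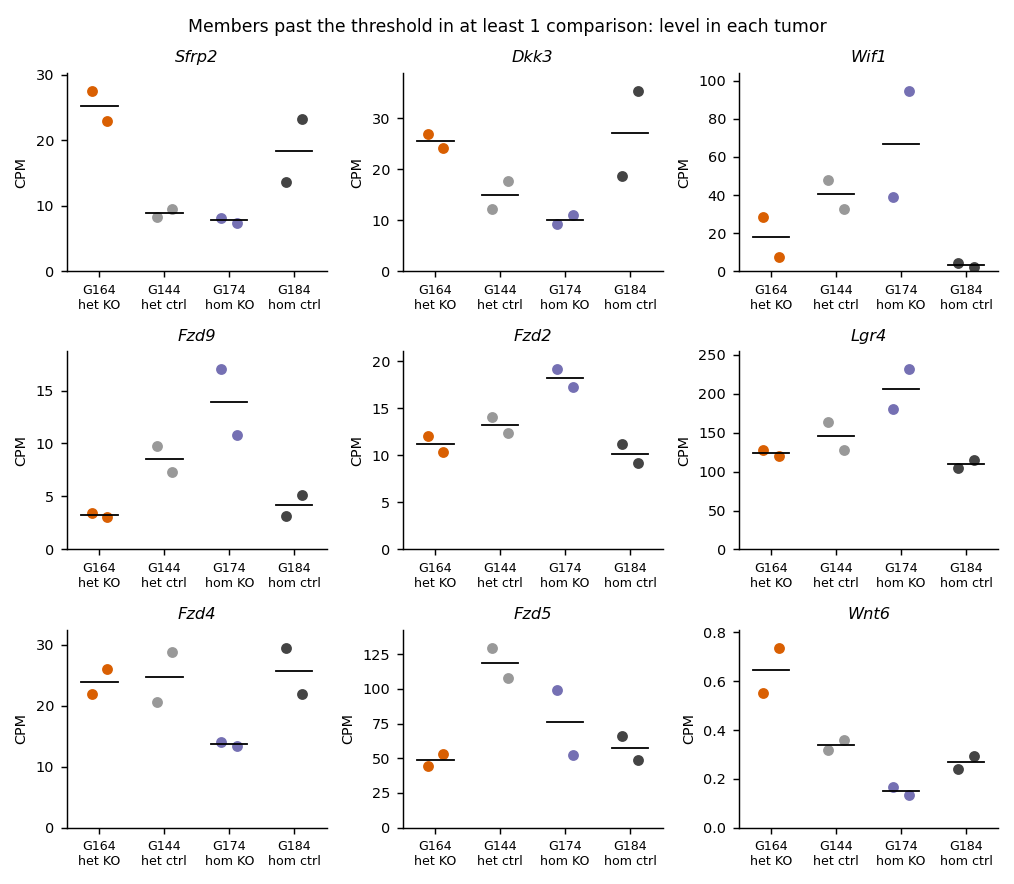
CPM of the 9 genes past the threshold in at least 1 comparison; each dot is a tumor and each line a mouse's mean over 2 tumors, with each KO left of its control. G164 and G184 are the high mice for Sfrp2 and Dkk3, and G184 is the lowest for Wif1, at 4.53 and 2.28 CPM.

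Markers of other cell types also differed between the mice. Sfrp2 and Dkk3 are known to be made by fibroblasts among other cells. The 12 fibroblast and matrix markers summed to 3639 and 3228 CPM in G164, against 1696 and 1976 CPM in G144. They summed to 2338 and 1328 CPM in G174, against 2407 and 1941 CPM in G184, where the mice overlapped. In heterozygotes 12 of 12 markers were positive and 3 passed (Pdgfra, Dcn and Pi16), or 25% against 4.01% of all genes. In homozygotes 10 of 12 were negative and 1 passed, or 8.33% against 13.1% of all genes. That gene, Dcn, was at 163 and 188 CPM in G164, against 59.5 and 68.0 CPM in G144, and at 32.4 and 47.6 CPM in G174, against 116 and 211 CPM in G184. T and B cell markers summed to 296 and 207 CPM in G164, against 13.8 and 15.9 CPM in G144, and to 6.96 and 7.93 CPM in G174, against 45.4 and 42.3 CPM in G184. Adipocyte and macrophage sums were also higher in G164 than in G144 and lower in G174 than in G184, without overlap. No marker of these 4 lists was near 0.

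Keratinizing epithelium markers summed to 166 and 101 CPM in G164, against 9.20 and 16.9 CPM in G144, and to 9.49 and 11.7 CPM in G174, against 13.8 and 19.6 CPM in G184. Of the 9 tested of 12, 4 passed in heterozygotes (44.4%, against 4.01% of all genes) and 5 in the difference (55.6%, against 25.1%). In homozygotes 0 passed in edgeR (against 13.1%), with 2 at an unadjusted p under 0.05. Sprr1b, not tested, was at 0 outside G164. Basal and myoepithelial markers summed to 1135 and 977 CPM in G164, against 589 and 482 CPM in G144, and to 202 and 536 CPM in G174, against 415 and 1177 CPM in G184. They were positive for 9 of 10 in heterozygotes and negative for 8 of 10 in homozygotes. Of these markers 0 passed in either in edgeR (0 and 3 at an unadjusted p under 0.05). Luminal markers were positive for 8 of 12 in heterozygotes and negative for 10 of 12 in homozygotes. In homozygotes 3 passed, 1 higher and 2 lower (25%, against 13.1% of all genes), and 4 in the difference (33.3%, against 25.1%). Mitosis markers summed to 945 and 864 CPM in G164, against 1454 and 1763 CPM in G144, and to 952 and 1231 CPM in G174, against 900 and 465 CPM in G184. Of 12, 0 passed in edgeR in heterozygotes (against 4.01% of all genes) and 0 in homozygotes (against 13.1%). In each of these, 9 had an unadjusted p under 0.05. In the difference 9 passed (75%, against 25.1% of all genes) and between the controls 9 (75%, against 12.6%). The part of all these cells in the changes of Sfrp2, Dkk3, Wif1 or the other genes was not tested, and in bulk tumors fewer cells of a type and less RNA per cell cannot be told apart.

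**Figure D4:**
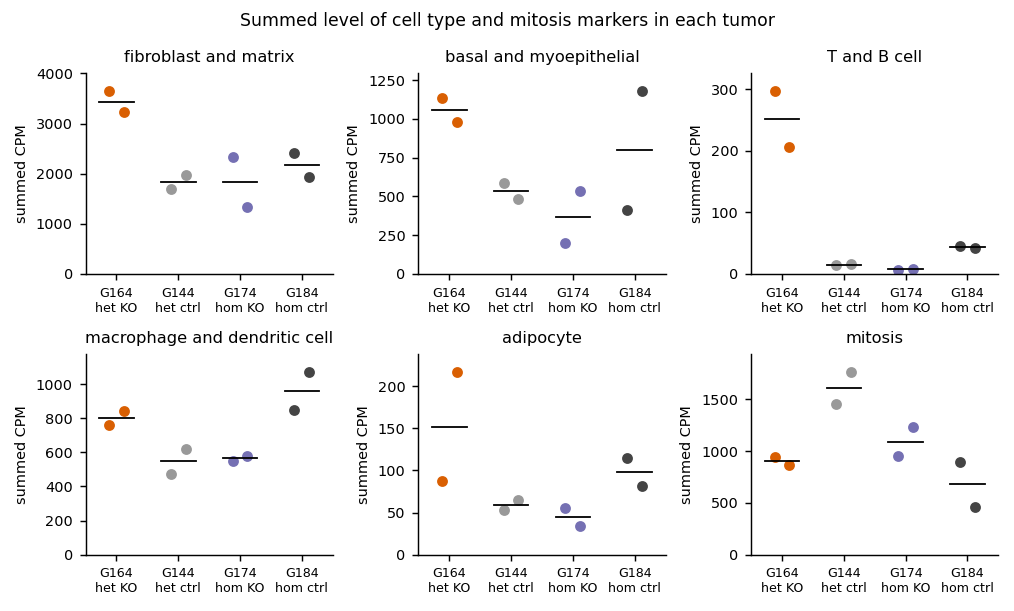
Summed CPM of 5 cell type marker lists and of mitosis markers in each tumor (dots), with the mean of each mouse (lines) and each KO left of its control. T and B cell markers reached 296 and 207 CPM in G164 and 45.4 CPM or less elsewhere.

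Of the Frizzled receptors, Fzd9 and Fzd2 rose and Fzd4 fell in the homozygous KO. Fzd9 was at 3.43 and 3.06 CPM in G164, against 9.80 and 7.33 CPM in G144. It was at 17.0 and 10.8 CPM in G174, against 3.16 and 5.16 CPM in G184, with no overlap in either genotype. Fzd9 rose 3.34-fold in the homozygous KO (log2 change 1.74 ± 0.32 SE, adjusted p = 0.0193). Its log2 change in heterozygotes was -1.40 ± 0.32 (adjusted p = 0.0597). The difference between the changes was 3.14 ± 0.46 (adjusted p = 0.00548), past the threshold in all 15 alternatives run.

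Fzd2 was at 12.1 and 10.4 CPM in G164, against 14.1 and 12.4 CPM in G144. The levels were 19.1 and 17.3 CPM in G174, against 11.2 and 9.15 CPM in G184. Both tumors of G174 lay above the other 6. Fzd2 rose in the homozygous KO by 0.84 ± 0.17 (SE, log2; adjusted p = 0.0233), and the log2 change in heterozygotes was -0.23 ± 0.17 (adjusted p = 0.419).

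Fzd4, also the receptor of the non-Wnt ligand norrin in blood vessels, was at 21.9 and 26.0 CPM in G164, against 20.5 and 28.9 CPM in G144. Values were 14.0 and 13.4 CPM in G174, against 29.5 and 21.9 CPM in G184. G174 was the low mouse and the other 3 overlapped. Fzd4 fell in the homozygous KO by 0.91 ± 0.21 (SE, log2; adjusted p = 0.0369), a call that 8 of 17 alternatives lost, among them the omission of any of 6 tumors (adjusted p = 0.0624 to 0.142). Its change did not pass the test of a difference between genotypes (-0.87 ± 0.30, adjusted p = 0.0744). All 10 blood endothelial markers were negative in homozygotes, with 1 past the threshold (10%, against 13.1% of all genes). Their sums were 164.4 and 134 CPM in G174, against 212 and 216 CPM in G184. The part of these markers in the Fzd4 change was not tested.

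Fzd5, a receptor for canonical and other Wnt ligands, was at 44.7 and 53.0 CPM in G164, against 129.6 and 107.5 CPM in G144. It was at 99.0 and 52.5 CPM in G174, against 65.7 and 48.4 CPM in G184. G144 was highest, tumor 1 of G174 came close to it, G174 and G184 overlapped, and neither KO comparison passed (adjusted p = 0.0621 in heterozygotes and 0.383 in homozygotes). The difference between the changes did, at 1.69 ± 0.42 (SE, log2; adjusted p = 0.0292).

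The most abundant receptors passed in no comparison in the edgeR fit with the filter. DESeq2, and edgeR without the filter, called Fzd7 between the controls. Lrp6, a coreceptor, was at 338 and 328 CPM in G164, against 341 and 379.7 CPM in G144, and at 480.4 and 359.9 CPM in G174, against 389 and 448.5 CPM in G184. Fzd7, a receptor known in basal mammary cells, was at 83.6 and 94.6 CPM in G164, against 63.9 and 66.1 CPM in G144, and at 83.7 and 91.4 CPM in G174, against 80.0 and 116 CPM in G184. The other coreceptor, Lrp5, was at 155 and 178 CPM in G164, against 163.7 and 159.5 CPM in G144, and at 242.5 and 185 CPM in G174, against 146 and 207.0 CPM in G184. Nor did Fzd1, Fzd3, Fzd6, Fzd8 or Fzd10, at mean levels of 2.39 to 42.2 TPM, pass in the edgeR fit with the filter. DESeq2, and edgeR without the filter, called Fzd1 in heterozygotes.

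Lgr4, a receptor for R-spondins, was the other surface receptor that rose in the homozygous KO. It was at 127 and 120.1 CPM in G164, against 164.01 and 127 CPM in G144. In homozygotes it was at 180.4 and 231 CPM in G174, against 104 and 115 CPM in G184. Both tumors of G174 were above the other 6. The log2 change was 0.91 ± 0.16 (SE, adjusted p = 0.0184) in homozygotes and -0.24 ± 0.16 (adjusted p = 0.411) in heterozygotes, with a difference of 1.15 ± 0.23 (adjusted p = 0.0155).

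Its relative Lgr6 was at 77.0 and 123 CPM in G164, against 102.5 and 74.5 CPM in G144, and at 223.5 and 153 CPM in G174, against 77.1 and 134 CPM in G184. The log2 change in homozygotes was 0.84 ± 0.35 (adjusted p = 0.15), short of the threshold although the mice did not overlap. Lgr5, the stem cell marker of several epithelia, was at 5.16 and 7.59 CPM in G164, against 14.0 and 10.9 CPM in G144, and at 13.1 and 2.68 CPM in G174, against 3.91 and 3.39 CPM in G184. The tumors of G174 lay on either side of both G184 tumors.

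The ligands of these receptors were scarce. Rspo1 was at 0.362 and 0.497 CPM in G164, against 0.259 and 0.466 CPM in G144, and at 0.350 and 0.361 CPM in G174, against 0.522 and 0.544 CPM in G184. Rspo3 was at 0.152 and 0.160 CPM in G164, against 0.503 and 0.359 CPM in G144, and at 0.0305 and 0.858 CPM in G174, against 0.127 and 0.186 CPM in G184. The tumors of G174 held both the lowest and the highest Rspo3 level of the series. Rspo4 had 5 counts in 4 of the 8 tumors.

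The ubiquitin ligases that remove Frizzled receptors did not pass in any comparison, although without the filter on low counts Znrf3 did in homozygotes, in the difference and between the controls. Rnf43 was at 92.9 and 95.9 CPM in G164, against 116 and 92.6 CPM in G144, and at 118 and 92.7 CPM in G174, against 94.0 and 80.1 CPM in G184. Znrf3 was at 27.2 and 35.8 CPM in G164, against 47.2 and 30.3 CPM in G144, and at 47.5 and 32.3 CPM in G174, against 28.1 and 21.2 CPM in G184. In homozygotes the tumors overlapped for Rnf43 and did not for Znrf3, whose log2 change was 0.70 ± 0.29 (adjusted p = 0.149).

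No ligand passed in a KO comparison in the edgeR fit with the filter, while DESeq2 called Wnt5b in heterozygotes and Wnt4 and Wnt9b in homozygotes. Without the filter on low counts, edgeR also called Wnt5b in heterozygotes and Wnt9b in homozygotes. In a fit of only the mice compared, it called Wnt5b in heterozygotes. Wnt4, a ligand of mammary branching, was at 6.52 and 6.13 CPM in G164, against 5.35 and 6.42 CPM in G144, and at 2.39 and 4.02 CPM in G174, against 4.85 and 6.87 CPM in G184. Wnt9b was at 0.438 and 0.337 CPM in G164, against 0.396 and 0.592 CPM in G144, and at 0.990 and 0.316 CPM in G174, against 0.155 and 0.140 CPM in G184. Both were without overlap in homozygotes. Wnt5b, a ligand of mainly beta-catenin-independent signalling and the most abundant per length, was at 74.9 and 73.2 CPM in G164, against 27.2 and 25.1 CPM in G144. It was at 22.5 and 84.9 CPM in G174, against 46.9 and 82.6 CPM in G184. The heterozygous mice were apart, by 1.5 ± 0.56 on the log2 scale (adjusted p = 0.155), but the tumors of G174 differed 3.77-fold from each other. Wnt5a, its close relative, was at 44.9 and 46.7 CPM in G164, against 45.2 and 30.4 CPM in G144, and at 50.3 and 45.6 CPM in G174, against 40.8 and 31.6 CPM in G184. Wnt7b, a ligand of canonical signalling, was at 13.5 and 14.7 CPM in G164, against 12.3 and 12.2 CPM in G144, and at 10.3 and 26.7 CPM in G174, against 14.0 and 33.2 CPM in G184.

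Wnt6 passed only in the test of the difference. It was at 0.553 and 0.738 CPM in G164, against 0.320 and 0.359 CPM in G144, and at 0.168 and 0.136 CPM in G174, against 0.240 and 0.295 CPM in G184. The difference between the changes was -1.74 ± 0.48 (SE, log2; adjusted p = 0.0386), on 172 counts over all 8 tumors, and 12 of 15 alternatives lost it. Of the 14 ligands tested, 12 had a positive log2 change in heterozygotes (median 0.41) and 4 in homozygotes (median -0.31). None passed in the edgeR fit of all 8 tumors with the filter (3 and 2 at an unadjusted p under 0.05).

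Ligand processing included a mouse that stood apart. Porcn was at 7.39 and 8.05 CPM in G164, against 5.53 and 5.88 CPM in G144, and at 6.05 and 5.54 CPM in G174, against 6.14 and 8.95 CPM in G184, and passed in no comparison. Wls, the carrier of Wnt ligands and not of the set by its name, was at 555 and 550.0 CPM in G164, against 583 and 536 CPM in G144. It was at 504 and 462 CPM in G174, against 170.5 and 175 CPM in G184. The 6 tumors of the other mice lay between 462 and 583 CPM, and the control G184 alone was low. Wls passed in the homozygous comparison (log2 change 1.48 ± 0.10 SE, adjusted p = 0.00118) and between the controls (-1.69 ± 0.10, adjusted p = 0.00097), while its log2 change in heterozygotes was -0.02 ± 0.10 (adjusted p = 0.933).

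Axin2, a scaffold of the beta-catenin destruction complex and a feedback target of canonical signalling, differed between tumors of a mouse. It was at 3.64 and 20.2 CPM in G164 tumors 3 and 6, against 8.85 and 2.17 CPM in G144 tumors 6 and 8. It was at 4.17 and 3.10 CPM in G174, against 3.92 and 4.12 CPM in G184. The tumors of G164 differed 5.54-fold and those of G144 4.08-fold, and no comparison passed. In G164 and in G144, the tumor lower in Axin2 was the one with skeletal muscle markers. The 8 muscle markers summed to 326 and 2.01 CPM in G164 tumors 3 and 6, against 2.53 and 261 CPM in G144 tumors 6 and 8. In the other 4 tumors they summed to 1.51 to 2.98 CPM, and Axin2 was also low there, at 3.10 to 4.17 CPM. The part of muscle in the Axin2 levels was not tested. Notum, which inactivates Wnt, was at 0.114 and 0.770 CPM in G164, against 0.305 and 0.197 CPM in G144, highest in the G164 tumor that had the most Axin2. Apcdd1 and Nkd1, inhibitors known as targets of canonical signalling, were highest in tumor 6 of G144, at 13.6 and 7.94 CPM, against 2.67 and 0.879 CPM in tumor 8 of that mouse. In G164 Apcdd1 was at 4.12 and 10.6 CPM and Nkd1 at 2.001 and 2.47 CPM. These 3 genes were picked after their values were seen, and the tumors of a mouse allow no test.

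Over the set, tumors of a mouse spread more than over all genes. With 0.1 CPM added to each value, the median absolute log2 ratio between the tumors of a mouse was 0.29, 0.38, 0.42 and 0.43 over the 43 genes in G164, G144, G174 and G184, and 0.16, 0.22, 0.24 and 0.21 over all genes tested. On this scale, which lessens the gaps of low genes, more than a 2-fold gap was seen for 3, 1, 7 and 7 of the 43 genes in these mice, against 4.16%, 4.44%, 7.11% and 5.23% of all genes.

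**Figure D5:**
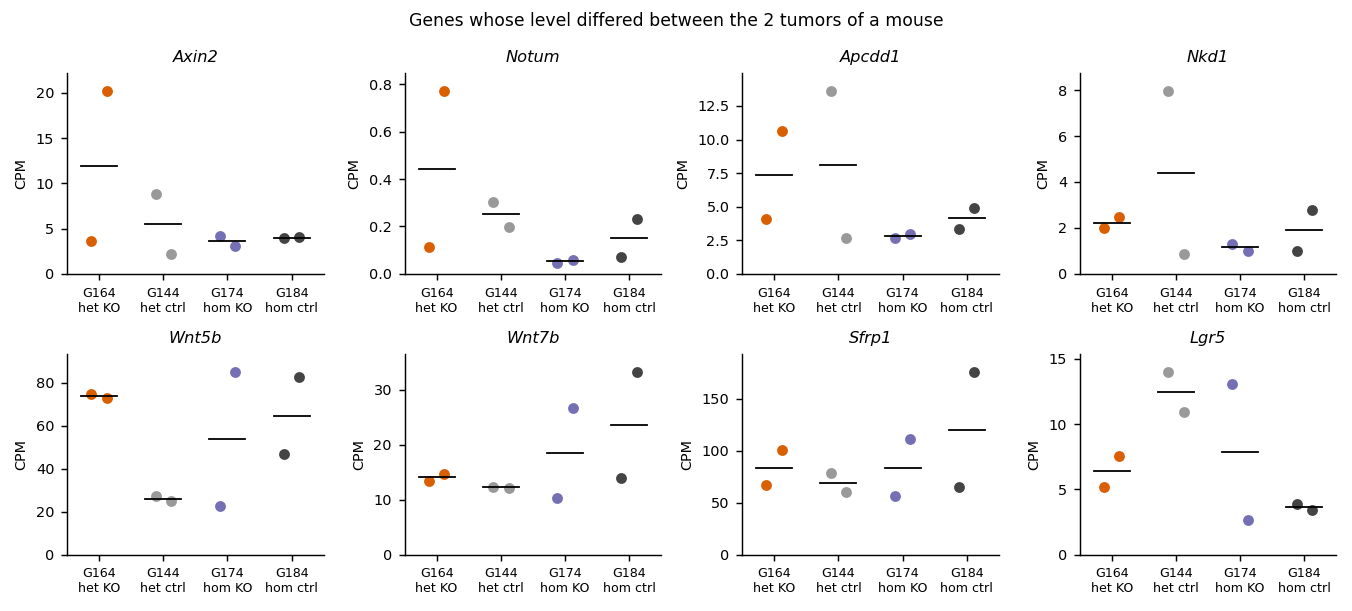
CPM of 8 genes chosen because their level differed between tumors of a mouse; dots are tumors, lines the mean of a mouse, and each KO stands left of its control. Axin2 and Notum peak in the same G164 tumor, at 20.2 and 0.770 CPM, and Apcdd1 and Nkd1 peak in a G144 tumor, at 13.6 and 7.94 CPM.

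Promoter sequences of 32 of the 52 genes were found in RefSeq (GRCm38.p6), including 7 of the 9 genes past the threshold in at least 1 comparison. Shown are those of the genes past the threshold whose change differed most between the genotypes, Wif1 and Fzd9 upwards in homozygotes and Sfrp2 downwards, each from 250 bases before to 50 bases after the start on the coding strand, with CG dinucleotides in capitals. They lie at chr10:121033754-121034053 (+), chr5:135250998-135251297 (-) and chr3:83766071-83766370 (+).
Wif1: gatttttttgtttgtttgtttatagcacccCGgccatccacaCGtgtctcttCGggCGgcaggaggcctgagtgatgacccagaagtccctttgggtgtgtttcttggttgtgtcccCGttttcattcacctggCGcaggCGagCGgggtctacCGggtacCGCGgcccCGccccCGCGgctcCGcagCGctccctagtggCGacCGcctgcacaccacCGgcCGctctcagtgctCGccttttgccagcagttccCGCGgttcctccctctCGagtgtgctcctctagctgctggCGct
Fzd9: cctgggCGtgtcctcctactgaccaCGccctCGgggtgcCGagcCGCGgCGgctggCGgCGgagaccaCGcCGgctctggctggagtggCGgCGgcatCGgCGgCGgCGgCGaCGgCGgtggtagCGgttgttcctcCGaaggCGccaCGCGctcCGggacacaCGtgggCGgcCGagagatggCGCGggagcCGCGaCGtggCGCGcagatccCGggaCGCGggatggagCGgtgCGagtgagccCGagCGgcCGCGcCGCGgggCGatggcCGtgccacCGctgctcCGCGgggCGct
Sfrp2: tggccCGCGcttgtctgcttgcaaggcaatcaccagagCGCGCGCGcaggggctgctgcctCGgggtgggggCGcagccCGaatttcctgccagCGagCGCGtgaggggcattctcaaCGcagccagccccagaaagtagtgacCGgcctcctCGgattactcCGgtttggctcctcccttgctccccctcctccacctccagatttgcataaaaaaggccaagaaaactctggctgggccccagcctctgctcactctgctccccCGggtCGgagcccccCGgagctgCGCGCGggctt
The Fzd9 window held 53 CG dinucleotides, Wif1 25 and Sfrp2 22, against a median of 7 over all 32851 promoters of the table and 25.5 over the 36 promoters of the set. At least as many as in Fzd9 were found in 0.451% of all promoters, and at least as many as in Wif1 and Sfrp2 in 18.4% and 23.1%. The TCF/LEF core motif, searched on both strands as CTTTGAA or CTTTGAT and as CTTTGTA or CTTTGTT, had no match in the promoters of these 7 genes. It was present in 13.9% of the promoters of the set, such as that of Dkk1, and in 16.9% of all promoters. A match or its absence only describes the letters of the window, and methylation and factor binding were not measured.

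By GENCODE M21 on GRCm38, the genes past the threshold lie at these places: Sfrp2 at chr3:83766321-83774316, Dkk3 at chr7:112116017-112159057, Wif1 at chr10:121033960-121100650, Fzd9 at chr5:135248938-135251230, Fzd2 at chr11:102604396-102608058, Lgr4 at chr2:109917647-110014257, Fzd4 at chr7:89404355-89413134, Fzd5 at chr1:64730558-64737751 and Wnt6 at chr1:74771892-74785322.

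The rest of the pathway is set beside all genes tested, of which 4.01% passed in heterozygotes and 13.1% in homozygotes. Among 14 other secreted or membrane modulators tested, 0 passed in heterozygotes by edgeR (4 at an unadjusted p under 0.05) and 5 in homozygotes (35.7%). The Sfrp-family inhibitor Frzb was at 11.9 and 13.6 CPM in G164, against 5.52 and 4.28 CPM in G144, and at 1.45 and 4.29 CPM in G174, against 9.02 and 34.5 CPM in G184. Frzb fell in the homozygous KO by 2.92 ± 0.71 (SE, log2; adjusted p = 0.0405). Dkkl1, a Dickkopf-like protein known from sperm, was at 53.8 and 54.2 CPM in G164, against 23.9 and 26.2 CPM in G144, and at 9.14 and 10.01 CPM in G174, against 52.1 and 26.6 CPM in G184. Dkkl1 fell by 2.04 ± 0.29 (SE, log2; adjusted p = 0.00955) in the homozygous KO. Draxin, a Wnt antagonist of axon guidance, rose by 1.63 ± 0.35 (adjusted p = 0.0296) at no more than 0.381 CPM in any tumor, and Wls is given above.

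Of 18 genes of the destruction complex and its transducers, 2 passed in homozygotes (11.1%, below the 13.1% of all genes) and 0 in heterozygotes (edgeR; 1 at an unadjusted p under 0.05). Ctnnb1, which encodes beta-catenin, rose by 0.69 ± 0.16 (SE, log2; adjusted p = 0.0369), with 1209 and 1457 CPM in G174, against 830.3 and 821.5 CPM in G184. In heterozygotes it was at 969 and 818 CPM in G164, against 1234 and 984 CPM in G144. Dvl2, which relays the Frizzled signal, rose by 0.71 ± 0.16 (adjusted p = 0.0336). Of 15 alternative receptors and planar polarity genes 1 passed in homozygotes (6.67%), and of 13 nuclear effectors 1 (7.69%), both below the 13.1% of all genes. In heterozygotes 0 passed in either list (edgeR, 0 and 2 at an unadjusted p under 0.05). Vangl2, a core planar polarity protein, rose by 0.74 ± 0.15 in homozygotes (adjusted p = 0.0232). Tcf7l1, a mainly repressive TCF among the nuclear effectors, rose by 0.90 ± 0.23 (adjusted p = 0.049).

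Of 22 transcriptional targets tested, 2 passed in each KO comparison (9.09%), above the 4.01% of all genes in heterozygotes and below the 13.1% in homozygotes. Prox1, a transcription factor of lymphatic endothelium, rose by 1.26 ± 0.21 (SE, log2; adjusted p = 0.0322) and Cd44, an adhesion receptor, by 0.88 ± 0.15 (adjusted p = 0.0347) in the heterozygous KO. In the homozygous KO Bambi, a decoy of TGF-beta receptors, rose by 0.96 ± 0.18 (adjusted p = 0.0192) and Sox17, an endothelial and endodermal factor, fell by 1.36 ± 0.26 (adjusted p = 0.0204). The median log2 change of the 22 targets was 0.32 in heterozygotes and -0.03 in homozygotes. Besides Axin2 these hold common readouts of canonical signalling, of which Tcf7 (4.83 to 11.2 CPM) and Lef1 (0.503 to 3.22 CPM) passed in neither. Lef1 was at 0.503 and 0.888 CPM in G174, against 1.82 and 3.06 CPM in G184, without overlap. Its log2 change in homozygotes was -1.81 ± 0.72 (SE, adjusted p = 0.137), and that of Tcf7 was 0.68 ± 0.44 (adjusted p = 0.324).

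Several calls in the set were lost when a tumor was left out, which leaves 1 tumor in a mouse and fewer degrees of freedom. Sfrp2 in heterozygotes no longer passed without any of the 4 heterozygous tumors (adjusted p = 0.102 to 0.214), while its log2 change stayed between 1.34 and 1.62. The heterozygous count was 3 without tumor 1 of G174 and 4 without tumor 6 of G174. In homozygotes, leaving out a tumor lost the call of Fzd4 for 6 tumors, of Dkk3 for 5, of Sfrp2 for 3, of Fzd9, Fzd2 and Lgr4 for 2 each and of Wif1 for 1, with no change of direction. Other genes came in when a tumor of G174 was left out. These were Rspo3 without tumor 1, and Lgr5, Wnt5b and Wnt9b without tumor 6. The fewest genes passed in homozygotes without tumor 9 of G184. That tumor held the highest Sfrp2 and Dkk3 levels and the lowest Wif1 level of the 4 homozygous tumors. The 8 differences fell to 5 without tumor 3 of G164 and without tumor 9 of G184, and to 4 without tumor 6 of G164 or tumor 6 of G144, while Sfrp2, Fzd9 and Wif1 passed in each case. The 2 genes between the controls came to 0 without tumor 6 of G144, tumor 8 of G144 or tumor 9 of G184 (edgeR; 3, 9 and 4 at an unadjusted p under 0.05), to 1 without tumor 3 or tumor 6 of G164, to 3 without tumor 6 of G184, and to 5 without tumor 1 or tumor 6 of G174.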

How the data were processed

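Total RNA of 8 tumors (Illumina TruSeq Stranded Total RNA, ribosomal RNA removed) was read in 2 runs of 4 lanes each. The authors made base calls with bcl2fastq, mapped reads with STAR (build GRCm38/mm10) and deposited raw counts per gene, unstranded and for each strand, for 64 lane files, and a table of counts summed per mouse; their versions and the annotation used were not found in the sources at hand. Reverse-strand counts were summed over lanes and runs of a tumor (the forward strand held 4.76% to 6.80% of stranded counts). The summed table equals the unstranded sums at all 55381 genes. Reads outside genes were left out: 47.98% to 52.27% of reads were counted in a gene.

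Low counts were filtered by filterByExpr with the mouse as group (22187 genes kept). TMM-scaled counts of the 8 tumors were fitted together in edgeR 4.0.16 (quasi-likelihood F test, R 4.3.3), with 4 residual degrees of freedom and Benjamini-Hochberg adjustment over all genes tested at 0.05. SEs are the log2 change divided by the root of F. TPM used union exon lengths of GENCODE M21. Alternatives changed the scaling (DESeq2 size factors, library size), the filter (none), the counts (unstranded, or from a single run), the tool (DESeq2 1.42.0), the samples (only the mice compared, or each tumor left out) and the call (a minimum fold of 1.5). The fits were tested on simulated data. Named with values in every tumor are the genes past the threshold and the 3 most abundant per length of each role, with all genes of smaller roles, and of other pathway lists up to 4 genes past the threshold per KO comparison. The members and lists were chosen with earlier results of these data known. Precision is limited by 2 tumors per mouse.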

Additional observations from a re-analysis of the deposited data

Results flagged for a closer look

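The change in homozygotes (G174 over G184) differed from that in heterozygotes (G164 over G144) for 8 genes of the set in the test of the difference itself. On the log2 scale the difference was 5.46 for Wif1, 3.14 for Fzd9, 1.69 for Fzd5, 1.15 for Lgr4 and 1.07 for Fzd2. It was -2.73 for Sfrp2, -2.19 for Dkk3 and -1.74 for Wnt6. In this test 25.1% of all genes passed, and the older mouse was the KO in heterozygotes and the control in homozygotes, so genotype, mouse and age cannot be told apart.

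Forward-strand counts entered no comparison but the alternative with unstranded counts. For 7 genes of the set they exceeded the reverse-strand counts over the 8 tumors. They were 978 for Wnt2b (209 reverse), 208 for Wnt16 (53), 136 for Sfrp5 (65), 109 for Wnt8b (9), 22 for Dkk4 (7), 14 for Rspo4 (5) and 14 for Wnt3 (11). In unstranded sums most reads given to these genes thus lie on the opposite strand. Which transcripts they come from was not tested.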

How the results depend on the processing

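The 18 changes past the threshold kept their direction in all 288 alternative values and stayed past the threshold in 212 of them; 76 were lost. The counts of genes of the set past the threshold moved by more than 1.5 times as follows. The number called over all genes stands in brackets. In heterozygotes (1 gene, 890 over all genes) 5 passed with DESeq2 (2817), 5 without the filter (2614) and 4 in a fit of only the mice compared (1394). Against both control mice 0 passed in edgeR (132), with 6 of the set at an unadjusted p under 0.05. In homozygotes (7 genes, 2917 over all genes) 1 passed in a fit of only the mice compared (980). Against both control mice 0 passed (395), with 13 of the set at an unadjusted p under 0.05. The comparison with both control mice was added after the data were seen. The 8 differences (5579 over all genes) became 14 without the filter (6537). Between the controls (2 genes, 2787 over all genes) 8 passed with DESeq2 (4471) and 10 without the filter (4158). With the second run alone 1 passed (2543), and with unstranded counts 1 (2851). Leaving out single tumors gave 0 to 4 genes in heterozygotes, 1 to 7 in homozygotes, 4 to 11 differences and 0 to 5 between the controls. Over Cre-positive and Cre-negative mice 0 passed in every alternative. Fits without a tumor or with fewer mice have fewer residual degrees of freedom, and the counts in them fell in some cases and rose in others. The cause of the shifts was not tested. No paired analysis was possible because the mice compared share at most 1 tumor number and the numbers only name tumors. Genes under 10 counts are beyond the depth.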
